A study of Oryza sativa Japonica Group with 8 samples.

Results

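The PYL proteins are the intracellular receptors of abscisic acid (ABA), the hormone that rises in plants short of water. When ABA enters the pocket of a PYL protein, loops close over it, and the closed receptor binds and inhibits protein phosphatases 2C of clade A. The phosphatases otherwise hold SnRK2 kinases inactive, so receptor binding frees the kinases to phosphorylate their targets, among them bZIP transcription factors that bind ABA-responsive promoter elements. In leaves this chain closes stomata and turns on protective genes. The 7 rice genes described here were chosen by locus identifier, out of 31143 genes in the deposited tables. They are Os10g0573400 (PYL1), Os06g0562200 (PYL2), Os02g0255500 (PYL3), Os01g0827800 (PYL4), Os05g0473000 (PYL5), Os03g0297600 (PYL6) and Os05g0213500 (PYL11). The PYL names are from general knowledge of the family, and other numbering schemes exist for rice. The list need not hold every rice PYL gene, so ranks, sums and shares below are among these 7. The files' own descriptions name 0 genes as ABA receptors. They call PYL1, PYL5 and PYL6 cyclase/dehydrase family proteins, PYL2 a Bet v I allergen family protein, PYL3 similar to an extensin fragment and PYL11 similar to CAPIP1.

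Leaf RNA came from 5-week-old plants of the japonica rice variety Ilmi, grown in soil pots in a greenhouse. The groups were well-watered controls and plants under drought for 1, 2 or 3 days, with watering stopped at a soil water content of about 75%. No group carries a transgene or mutation by its label. A total RNA library and an mRNA library exist for each of the 4 treatments, so 8 libraries form 8 groups of 1. There is no replicate, so no test between treatments was possible and no p-value is given. Whether both library kinds were made from one RNA extract, and how many plants each holds, is not given by the sources at hand, so the library kinds are not treated as replicates.

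Values are FPKM, that is fragment counts divided by transcript length and library depth, summed over the transcripts of a gene. Low values recur in steps of FPKM times length, and if 1 step is 1 fragment the depth was 16.3 to 24.6 M fragments per library. The intervals given below are 95% exact Poisson limits on that assumption and cover counting error only, not the spread between plants. The leaf markers were abundant when watered, at 672 to 6501 FPKM in total RNA, and stood at 10.5 to 17.1 FPKM on day 3. Of the markers for other tissues, the root silicon transporter Os02g0745100 was at 6.17 to 29.0 FPKM over the 8 libraries and the glutelin Os10g0400200 at 0.940 to 4.01 FPKM. The root nitrate transporter Os02g0112100 was at or near 0 in total RNA and had no entry for mRNA, and the other 2 glutelin genes had no entry.

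Of the 7 receptor genes, 6 had an entry in the total RNA table and 5 in the mRNA table. PYL4 had none in either, and was not analysed further. PYL5 was listed at 0 in 3 total RNA libraries and at 0.0138 FPKM on day 2, less than 1 fragment, and had no entry for mRNA. PYL2 had a mean of 0.815 FPKM in total RNA and 0.858 FPKM in mRNA, and lay below 1 FPKM in 3 of 4 libraries of each table. The remaining 4, PYL1, PYL3, PYL6 and PYL11, averaged 1 FPKM or more in both tables and are called measured. PYL6 was nevertheless below 1 FPKM on days 2 and 3 in both kinds.

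Each receptor gene with an entry had a single transcript model. In the coordinates of the files (build IRGSP-1.0), PYL1 lies on chromosome 10 at 22766332 to 22767420, PYL2 on chromosome 6 at 21556404 to 21557283, PYL5 on chromosome 5 at 23239204 to 23240669 and PYL6 on chromosome 3 at 10418661 to 10419833. In these 4 genes the genomic span equals the transcript length (1089, 880, 1466 and 1173 bases), so the model holds no intron. PYL3 on chromosome 2 at 8801325 to 8805273 spans 3949 bases for a transcript of 982, and PYL11 on chromosome 5 at 7034322 to 7036548 spans 2227 bases for 1095, so both models hold intron sequence. Of all 18113 measured genes, 17.1% had models without an intron. The genes with introns, PYL3 and PYL11, held the top 2 ranks among the receptors in all 8 libraries. No other gene with an entry overlapped a receptor gene, the nearest being 4830 bases from PYL3.

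In watered leaves PYL3 was the most abundant of the listed receptor transcripts in both kinds. PYL3 was at 50.8 FPKM (47.5 to 54.3) in total RNA and 44.8 FPKM (41.6 to 48.2) in mRNA. PYL11 followed at 16.2 FPKM (14.5 to 18.1) and 40.1 FPKM (37.3 to 43.2). In mRNA the intervals of these 2 genes overlap, so their order is not resolved there. PYL6, at 6.91 FPKM (5.82 to 8.15) in total RNA and 8.36 FPKM (7.12 to 9.76) in mRNA, stood above PYL1 in total RNA and below it in mRNA. PYL1 was at 1.28 FPKM (0.825 to 1.90) and 16.2 FPKM (14.4 to 18.1). PYL2 was at 0.351 FPKM (0.1202 to 0.795) and 0.843 FPKM (0.437 to 1.47). About 5.40 fragments stand behind its total RNA value, and the interval reaches the upper limit of 0.144 FPKM for PYL5.

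**Figure D1:**
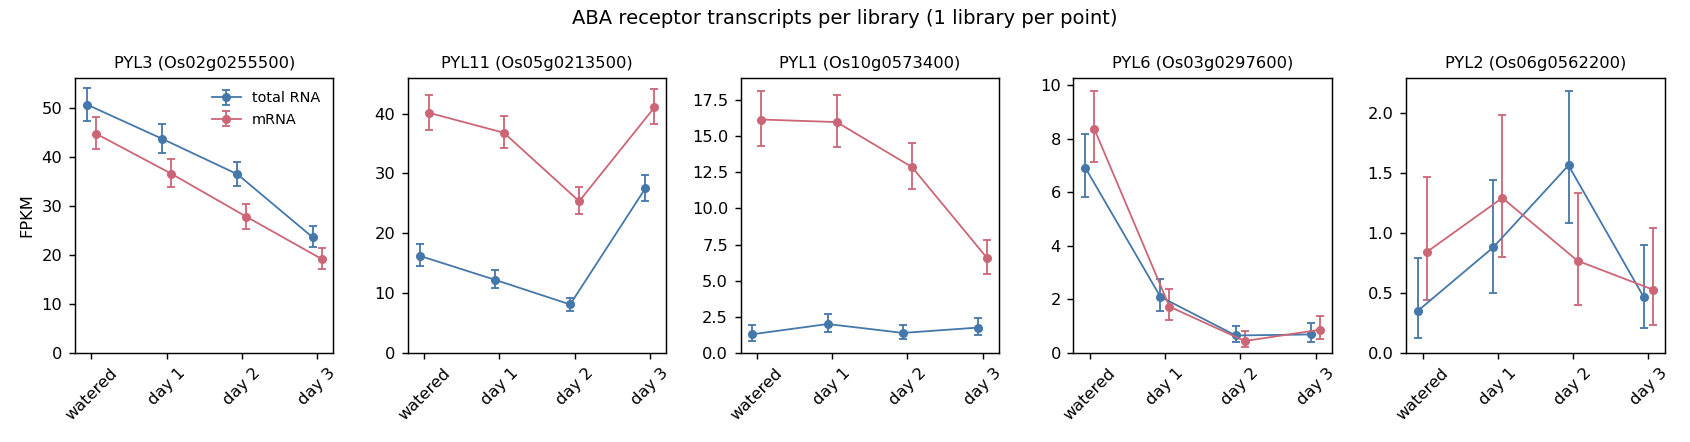
FPKM (y axis, from 0) of 5 receptor genes in watered leaves and after 1, 2 and 3 days without water (x axis), 1 library per point, with total RNA in blue and mRNA in red; bars are 95% counting intervals. PYL3 is lower on each later day, PYL11 is lowest on day 2, PYL6 drops below 1 FPKM by day 2, and PYL1 is near the bottom of its axis in total RNA alone.

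The first question was how each receptor differed after 1, 2 and 3 days without water. A gene was called when its log2 ratio of FPKM + 1 to the watered library reached 1, or -1, in the total RNA and the mRNA comparison alike. Adding 1 understates differences of low genes. Of the 4 measured receptors, 0 were called higher on any day, and 1, 1 and 2 were called lower on days 1, 2 and 3. Among all measured genes, 6.93%, 14.5% and 18.2% were called higher on these days and 2.46%, 11.1% and 25.9% lower. A list of 4 is too short to set a share against these.

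PYL6 was lower on each drought day. Its total RNA level was 6.91 FPKM in the watered library, followed by 2.09, 0.645 and 0.684 FPKM over the drought days. The mRNA level was 8.36 FPKM, followed by 1.72, 0.438 and 0.858 FPKM. Every drought library lay below the watered library of its kind, and none of the counting intervals overlapped the watered one. On day 2 the FPKM was 10.7-fold lower in total RNA and 19.1-fold lower in mRNA. Only about 18.6 and 9.2 fragments stood behind these day 2 values. Their intervals were 0.386 to 1.01 FPKM in total RNA and 0.203 to 0.825 FPKM in mRNA. Both folds are thus imprecise, and a difference between the kinds is not resolved. Between days 2 and 3 the intervals overlapped in both kinds. The log2 ratios of days 1 to 3 were -1.36, -2.27 and -2.23 in total RNA, with -1.78, -2.70 and -2.33 for mRNA. Its day 1 ratio lay at the percentile 1.35 of all measured genes in total RNA and 0.674 in mRNA, while its day 3 percentiles were 8.40 and 10.01. With a pseudocount of 5 the day 1 ratios were -0.75 and -0.99, short of the size rule. The day 2 and 3 calls of PYL6 held with pseudocounts of 0.1 and 5 and under both other scalings, but a filter of at least 5 FPKM removes the gene.

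On the deposited scale PYL3 was lower on each day than on the day before. In total RNA it was at 50.8, 43.8, 36.5 and 23.6 FPKM from the watered library to day 3, and in mRNA at 44.8, 36.7, 27.8 and 19.2 FPKM. The counting intervals of neighbouring days did not overlap from day 1 on, and each drought day lay outside the watered interval. The ratio reached the size rule on day 3 alone, at -1.07 in total RNA and -1.18 in mRNA, close to the limit of -1. On that day the median of all measured genes stood at -0.24 and -0.39, against 0.23 and 0.17 for day 1, then 0.11 and 0.06 for day 2. Relative to that median PYL3 stood at -0.44 and -0.45 after 1 day and at -0.83 and -0.80 after 3. Under median-ratio scaling the day 3 ratios were -0.72 and -0.64, and the call was lost, as it was with a pseudocount of 5. With that scaling the mRNA ratio was -0.68 on day 2, so its last step was not downward. On day 3 of the deposited scale PYL3 lay at the percentile 26.1 of all measured genes in total RNA and at 28.4 in mRNA. The photosynthesis markers of the leaf went the same way over these days, for instance phosphoribulokinase (Os02g0698000) from 672 to 403, 141 and 10.5 FPKM in total RNA. Their part in the PYL3 values was not tested, and in bulk leaf RNA fewer cells of a type cannot be told apart from less RNA per cell.

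PYL11 had another course, lowest on day 2 and higher again on day 3. Its total RNA level was 16.2 FPKM in the watered library, then 12.2, 8.08 and 27.5 FPKM. Its mRNA level was 40.1 FPKM, then 36.8, 25.3 and 41.0 FPKM. The day 3 library was above the watered one in total RNA with intervals apart, while in mRNA these intervals overlapped. From day 2 to day 3 the FPKM was 3.41-fold higher in total RNA and 1.62-fold higher in mRNA, again with intervals apart in both kinds. In total RNA the ratios to watered were -0.92 on day 2 and 0.73 on day 3, while mRNA gave -0.64 and 0.031, so no day met the size rule. On day 3 the other scalings gave 1.08 and 0.59 (median-ratio) and 0.54 and -0.17 (deposited quantile-normalized values). The sign against the watered library on day 3 is thus positive in total RNA under all 3 scalings and differs between scalings in mRNA.

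PYL1 differed between the library kinds. The mRNA level was 16.2 FPKM in the watered library and then 15.99, 12.9 and 6.55 FPKM, and the day 3 interval of 5.45 to 7.82 lay below the watered interval. The total RNA level was 1.28, 1.99, 1.37 and 1.75 FPKM, and each drought interval overlapped the watered one of 0.825 to 1.90. The day 3 ratio was -1.18 in mRNA and 0.27 in total RNA, so PYL1 met the size rule in mRNA alone and is not called. The mRNA ratio missed the size rule at -0.68 under median-ratio scaling, -0.82 with the quantile-normalized values and -0.87 with a pseudocount of 5. About 24.4 to 43.0 fragments stood behind each total RNA value, against 123 to 316 in mRNA.

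PYL2 was low in every library. In total RNA it was at 0.351, 0.880, 1.56 and 0.464 FPKM from watered to day 3, and in mRNA at 0.843, 1.29, 0.768 and 0.527 FPKM. In total RNA the day 2 value was 4.46 times the watered one, with intervals apart and about 33.9 against 5.40 fragments. Its log2 ratio was 0.92, and 1.88 with a pseudocount of 0.1. In mRNA the day 2 value was 0.911 times the watered one, and all 3 drought intervals overlapped the watered interval. On days 2 and 3 the kinds lay on opposite sides of their watered libraries on the deposited scale. With the quantile-normalized values the mRNA ratios were 0.0087 and 0.052, on the same side as total RNA, and no common direction was detectable at this depth.

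**Figure D2:**
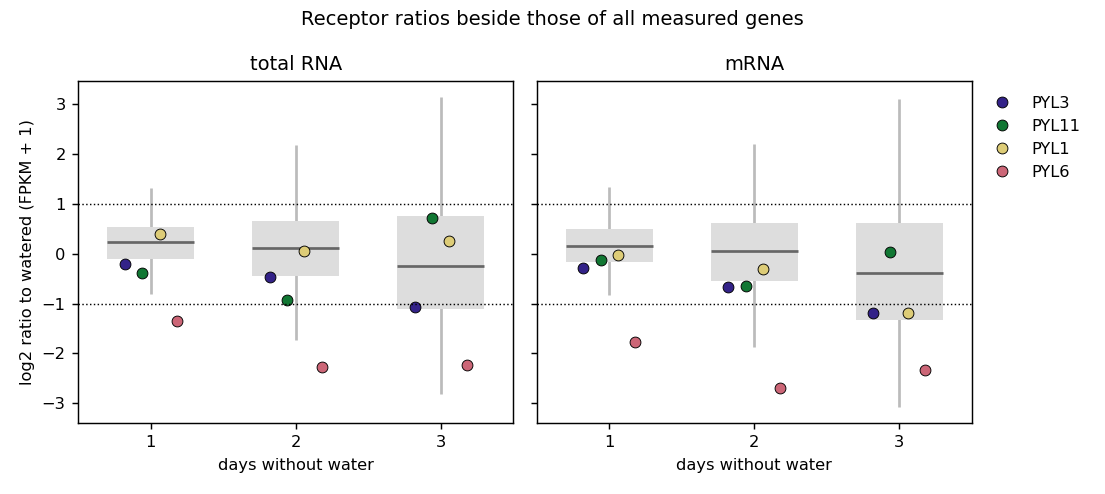
Log2 ratio of FPKM + 1 to the watered library (y axis) on each day without water (x axis) for the 4 measured receptors (points), beside all 18113 measured genes (grey box, quartiles; dark line, median; thin line, percentiles 5 to 95); dotted lines mark the size rule at 1 and -1. PYL6 lies below the percentile 5 on days 1 and 2 in both kinds, while PYL11 lies above the median on day 3.

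The next question was what the 7 listed receptor genes held together, which need not be the total of the family. FPKM is scaled by length, so levels of the receptor genes can be summed within a library. The sum was 75.5 FPKM in watered total RNA and 60.9, 48.2 and 54.0 FPKM over the drought days. The mRNA sum was 110 FPKM and then 92.4, 67.2 and 68.2 FPKM. The summed receptor level was thus below the watered library on every day, and on day 3 it stood at 71.5% of it in total RNA and at 61.8% in mRNA. Median-ratio scaling brought the day 3 log2 ratio of the sum from -0.48 to -0.11 in total RNA and from -0.70 to -0.13 in mRNA.

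The make-up of this sum differed most on day 3. Shares within a library do not depend on how libraries are scaled to each other by a single factor. PYL3 made up 67.2% of the receptor sum in watered total RNA, 71.8% and 75.8% on days 1 and 2, and 43.7% on day 3. PYL11 made up 21.5%, 20.03%, 16.8% and 50.9% of it. On day 3 PYL11 was the most abundant listed receptor in total RNA. It was at 27.5 FPKM (25.4 to 29.8) against 23.6 FPKM (21.6 to 25.8) for PYL3, with intervals that overlap. In mRNA the share of PYL11 was 36.4%, 39.8%, 37.7% and 60.2%, and that of PYL3 40.6%, 39.6%, 41.4% and 28.1%. There the day 3 intervals of PYL11 (38.2 to 44.0 FPKM) and PYL3 (17.2 to 21.4 FPKM) lay apart. PYL6 made up 9.15% of the watered sum in total RNA and 7.58% in mRNA, and 1.27% and 1.26% on day 3.

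**Figure D3:**
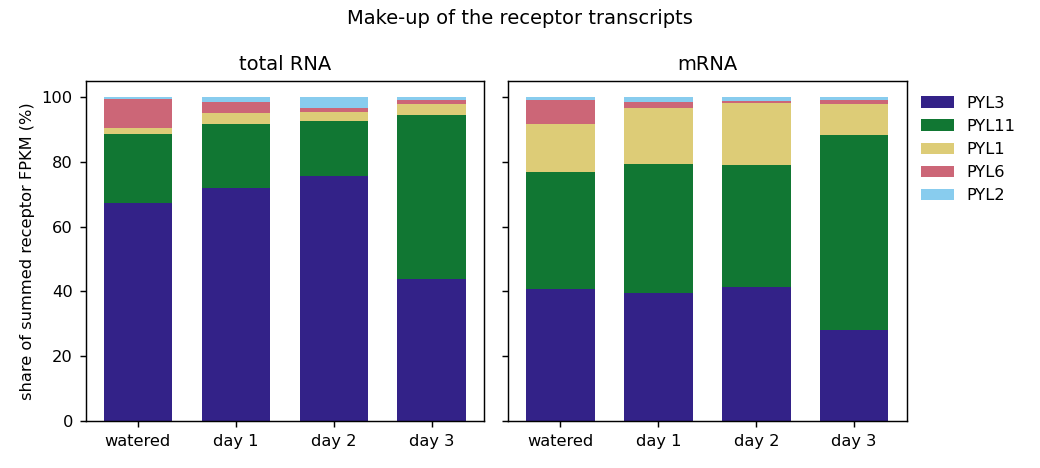
Share of each receptor gene in the summed receptor FPKM of a library (y axis, percent), by treatment (x axis) and library kind. On day 3 PYL11 takes 50.9% in total RNA and 60.2% in mRNA, and PYL1 takes 14.7% of the watered sum in mRNA against 1.70% in total RNA.

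The library kinds were also compared with each other for each receptor. Poly(A) selection keeps polyadenylated transcripts, while total RNA libraries hold other transcripts as well. PYL1 was 12.6-fold higher in mRNA than in total RNA when watered, and 8.03, 9.36 and 3.75-fold higher on days 1, 2 and 3. This log2 difference of 2.91 when watered lay at the percentile 99.7 of all measured genes, and on day 3 that of 1.46 lay at 98.2. PYL11 was 2.48, 3.01, 3.14 and 1.49-fold higher in mRNA over the same libraries, at percentiles of 83.6 to 95.9. PYL3 went the other way in all 4 treatments, with an mRNA level of 0.762 to 0.883 times its total RNA level. For PYL6 this quotient lay on either side of 1, at 0.680 to 1.26. Of all measured genes, 12.6% were at least 2-fold higher in mRNA when watered and 5.29% on day 3. Genes without an intron, as PYL1 and PYL6 are, had a median log2 difference of 0.10 when watered, against 0.15 for the others.

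**Figure D4:**
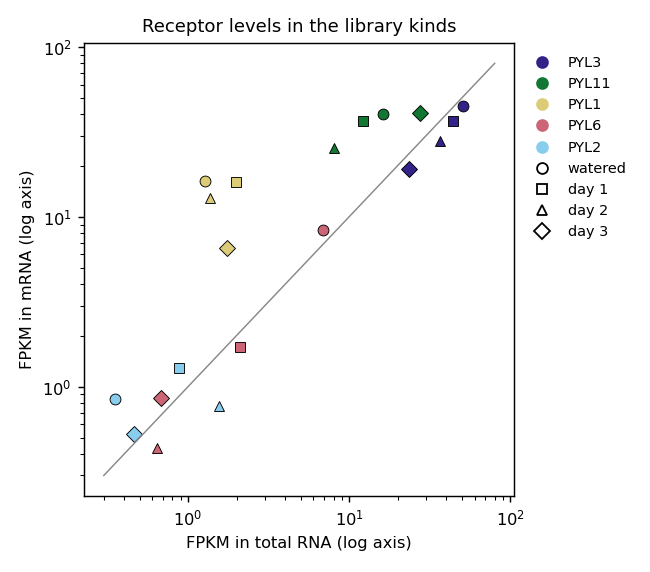
FPKM of 5 receptor genes in total RNA (x axis, log) and in mRNA (y axis, log); color gives the gene, marker shape the treatment, and the line marks equal values. All 4 PYL1 points lie far above the line, all 4 PYL11 points above it and all 4 PYL3 points below it.

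Gene families of the later steps were described from lists by locus, recalled from general knowledge and not contradicted by the files' descriptions. Clade A phosphatases, the direct targets of the receptors, were called higher in 8 of 10 genes on each drought day and lower in 0. Of all measured genes, 6.93%, 14.5% and 18.2% were called higher on the 3 days, and 2.46%, 11.1% and 25.9% lower. Their median log2 ratios on day 1 were 1.77 in total RNA and 1.57 in mRNA, and by day 3 they stood at 3.27 and 2.83. In total RNA Os05g0572700 stood at 0.577 FPKM in watered leaves, then at 11.9, 54.1 and 135 FPKM. Os09g0325700 stood at 6.50 FPKM, then at 33.0, 66.0 and 267 FPKM. By the mean of both kinds, Os05g0592800 had the smallest day 3 ratio of the list, at 1.03 in total RNA and 0.19 in mRNA. A pseudocount of 5 removed the day 1 and day 2 calls of Os04g0167900 and Os05g0537400. Median-ratio scaling also removed the day 1 call of Os05g0537400. The day 3 call of Os01g0846300 was lost with the quantile-normalized values, and Os04g0167900 did not pass a filter of at least 5 FPKM.

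SnRK2 kinases were called higher in 4 of 10 genes on each day, and lower in 0, 0 and 1. The shares of all genes were 6.93%, 14.5% and 18.2% higher and 2.46%, 11.1% and 25.9% lower. Which of the 10 kinases the phosphatases hold inactive is not given by these data. SAPK1 and SAPK6 were called higher on every day, SAPK3 and SAPK7 on days 1 and 2, and SAPK4 and SAPK9 on day 3. SAPK2, SAPK5, SAPK8 and SAPK10 were not called on any day. Under median-ratio scaling the number of kinases called higher on day 3 was 6 instead of 4. SAPK1 (Os03g0390200) was at 21.2, 63.6, 143 and 256 FPKM in total RNA from watered to day 3, and SAPK9 (Os12g0586100) at 4.05, 2.95, 2.65 and 56.5 FPKM. SAPK7 (Os04g0432000) was at 7.35, 20.9, 18.1 and 2.32 FPKM. A pseudocount of 5 removed its higher call for day 2 and its lower call for day 3, and both other scalings removed the latter.

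ABA-responsive bZIP factors, which the kinases activate, were called higher in 3, 3 and 5 of 7 genes and lower in 0, 1 and 0, beside 6.93%, 14.5% and 18.2% higher and 2.46%, 11.1% and 25.9% lower among all genes. The higher call of Os06g0211200 was lost with a pseudocount of 5 on days 1 and 2, and under both other scalings on day 1. The day 3 higher call of Os01g0859300 was lost with a pseudocount of 5 or a filter of at least 5 FPKM. This gene was at 0, 0, 0.712 and 4.29 FPKM in total RNA. It passed the filter of 1 FPKM only through day 3, the day of its call. Os02g0766700 (bZIP23) was at 15.4, 55.9, 104 and 206 FPKM in total RNA, and Os01g0867300 at 4.36, 20.4, 41.6 and 81.4 FPKM. Os07g0686100 was at 2.09, 1.21, 0.145 and 0.626 FPKM, a lower call for day 2 that a pseudocount of 5, a filter of at least 5 FPKM and both other scalings each removed. It passed the filter of 1 FPKM only through its watered library, which its lower call is set against. The filter thus favoured the calls of Os01g0859300 and Os07g0686100, and they lend the counts no support.

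Set beside these listed genes, the receptor sum was a smaller part on each later day. The summed level of the 10 phosphatases was 1.73 times that of the receptors in watered total RNA and 5.85, 12.1 and 26.8 times on days 1, 2 and 3. In mRNA the same quotient was 2.01, 6.41, 13.3 and 24.5. The phosphatase sum itself was 11.0-fold higher on day 3 in total RNA and 7.52-fold in mRNA, so most of the quotient's difference lies in that sum. The SnRK2 sum was 3.31 times the receptor sum when watered and 14.2 times on day 3 in total RNA, and 2.67 and 13.3 times in mRNA. The bZIP sum was 0.799 times the receptor sum when watered and 6.80 times on day 3 in total RNA, and 0.845 and 6.10 times in mRNA. These are quotients of transcript levels in 1 library each and give nothing on protein amounts.

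**Figure D5:**
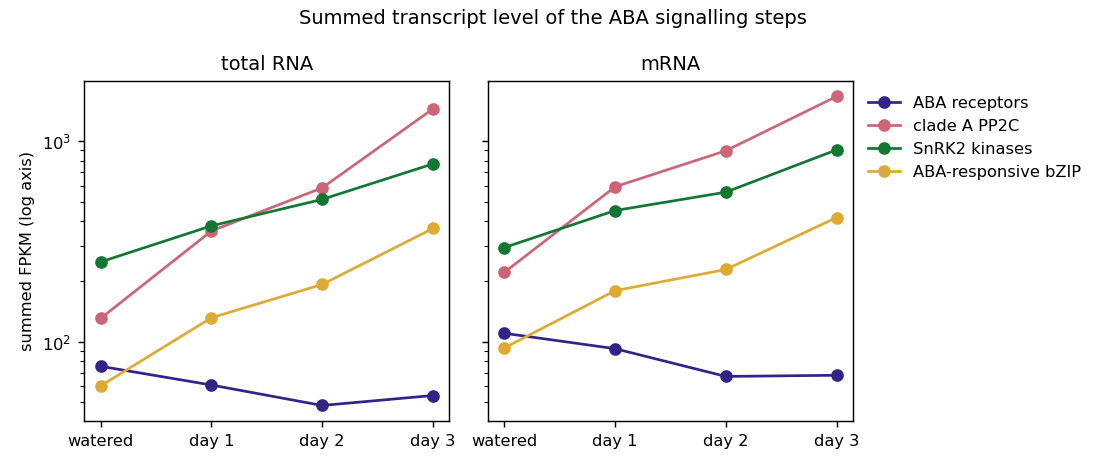
Summed FPKM (y axis, log) of the receptors, clade A phosphatases, SnRK2 kinases and ABA-responsive bZIP factors by treatment (x axis), 1 library per point. The receptor sum lies between 48.2 and 75.5 FPKM in total RNA while the phosphatase sum goes from 131 to 1446 FPKM.

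For the receptors called on at least 1 day, the genes most like them over the 8 libraries were found by Pearson's r of log2(FPKM + 1), centred within each table, among 9925 measured genes that span at least 1 log2 unit in each table. For PYL3 these were Os04g0465500, described as an acyl-CoA N-acyltransferase domain protein, Os03g0828100, similar to a 50S ribosomal protein L18, and Os03g0837900, a cyclase/dehydrase family protein, each at r = 0.9989. For PYL3, 526 genes had r of at least 0.99, so many genes share its course. For PYL6 the genes were Os01g0236700 (r = 0.9958), with an octicosapeptide/Phox/Bem1p domain, Os02g0639100 (r = 0.9933) and Os01g0910900 (r = 0.9918), a conserved hypothetical gene. Only 8 genes had r of at least 0.99 with PYL6. Os02g0639100 was at 10.5, 2.76, 0.613 and 0.817 FPKM in total RNA, close to PYL6 in level too. The library kinds share treatments, and r does not see the size of a difference. With a pseudocount of 5, 0 of the 3 genes named for each receptor were among its top 3.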

How the data were processed

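Leaf RNA of 4 treatments was sequenced as total RNA and mRNA with stranded kits, per the labels' protocols. The submitters' processing notes list StringTie 1.3.3b, HISAT2 2.0.5, Bowtie2 2.2.6, Trimmomatic 0.32, FastQC 0.10.0 and the genome IRGSP-1.0, without roles. How shared reads were assigned is not given by the sources at hand. Per the file headers, the authors deposited 1 FPKM value for each transcript in each library. They also deposited log2 values whose sorted entries match between the 4 libraries of a table (within 0.01 for 100% in total RNA and 98.9% in mRNA), as quantile normalization gives. These were used as an alternative.

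FPKM was summed per gene. Measured genes average 1 FPKM or more in both tables. Ratios use a pseudocount of 1, and the size rule asks for a log2 ratio of 1 in both kinds. It was tested on simulated data with a small assumed noise and watered levels of at least 1 FPKM. That noise does not stand for the unknown spread between plants, so the simulation does not show how reliable the calls are here. Fragments were estimated from the smallest step, with 19.2% to 24.7% of values under 3.5 steps lying within 2% of 1, 2 or 3 steps. Alternatives were pseudocounts of 0.1 and 5, no filter and 5 FPKM, median-ratio scaling, quantile-normalized values, each kind alone and the most abundant transcript.

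The receptor genes and lists were chosen with earlier results of these data known. Named were all receptors, the 2 highest and 1 lowest gene per list on day 3, any gene described as a receptor, and the 3 genes most like each called receptor. Phosphatase and bZIP genes outside this rule are named for their lost calls, after their values were seen. All SnRK2 genes are named for their calls, also after their values were seen. Dimeric and monomeric receptors were not grouped, since their assignment was not certain. The RefSeq gene table given is of another assembly and matched 0 receptor identifiers, so no sequence is shown and protein and promoter features were not analysed here. Calculations ran in Python 3.11.15 with scipy 1.17.1, numpy 2.4.6 and pandas 2.3.3.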

Additional observations from a re-analysis of the deposited data

Results flagged for a closer look

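The direction of PYL11 (Os05g0213500) against the watered library differed between days in both kinds. Its total RNA log2 ratios were -0.38 and -0.92 on days 1 and 2 against 0.73 on day 3, and those of mRNA were -0.12 and -0.64 against 0.031. The difference was not tested, and under quantile normalization the day 3 value in mRNA was -0.17.

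The sign of the PYL1 (Os10g0573400) ratio differed between the library kinds on every day. The log2 ratios of days 1 to 3 were 0.39, 0.057 and 0.27 in total RNA, while mRNA gave -0.015, -0.31 and -1.18. This difference was not tested either, and the counting intervals of the total RNA values overlap.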

How the results depend on the processing

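The number of receptors called higher was 0 on each day under every alternative run. The receptors called lower, 1, 1 and 2 on days 1, 2 and 3, were 0 on day 1 and 1 on day 3 with a pseudocount of 5, 0, 0 and 1 with at least 5 FPKM, which leaves 2 receptors measured, and 1 on day 3 under median-ratio scaling. SnRK2 genes called lower on day 3 (1) were 0 with a pseudocount of 5 and under both other scalings. The bZIP genes called lower on day 2 (1) were 0 with a pseudocount of 5, with at least 5 FPKM and under both other scalings. On day 3 they were 1 instead of 0 with a pseudocount of 0.1 and in mRNA alone, and on day 1 they were 1 in mRNA alone. The other counts of the lists stayed within 1.5 times, but some went up. SnRK2 genes called higher on day 3 (4) were 6 under median-ratio scaling and 5 in mRNA alone. Phosphatases called higher on day 3 (8) were 9 under median-ratio scaling and in total RNA alone. They were 7 with the quantile-normalized values and with at least 5 FPKM.

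The log2 ratio of the receptor sum (day 1 -0.31 and -0.26, day 2 -0.65 and -0.71, day 3 -0.48 and -0.70 in total RNA and mRNA) kept its sign. Median-ratio scaling gave -0.56 and -0.45 on day 1 and -0.11 and -0.13 on day 3. Quantile normalization gave -0.59 and -0.46 on day 1, -0.95 and -0.92 on day 2, and -0.70 in total RNA on day 3. The cause was not tested. The most abundant transcript alone changed nothing, since each receptor has 1. The likest genes of PYL3 and PYL6 changed with a pseudocount of 5, where 0 of 3 were kept for each.

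No paired analysis was possible because each group holds 1 library and no test was run. Counting error limits PYL1 in total RNA, PYL2 and PYL5. It also limits the size of the PYL6 differences after day 1, where about 9.2 to 18.6 fragments stood behind each value. The counting intervals of these PYL6 values still lay below the watered one in both kinds. The spread between plants is unknown for every value.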

Other observations

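Of the genes outside the receptor list, 5 carry the same description as a receptor, and they were looked up after the receptor values were seen. Among the cyclase/dehydrase family genes, described as PYL5 and PYL6 are, Os01g0772400 was at 8.07, 15.8, 25.4 and 94.2 FPKM in total RNA from watered to day 3 and was called higher on days 2 and 3. Os03g0837900 was at 77.1, 47.4, 23.3 and 6.10 FPKM and was called lower on these days. Os01g0971700 was at 12.7, 14.0, 17.5 and 17.9 FPKM and was not called. Of the Bet v I allergen family genes, described as PYL2 is, Os08g0374000 had total RNA levels of 32.4, 4.45, 2.81 and 0.763 FPKM and mRNA levels of 28.1, 3.99, 1.16 and 0.577 FPKM, and was called lower on each day. Os04g0465600 was below 1 FPKM in every library.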
